A study of Mus musculus with 11 samples.

Results

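Rab genes encode the largest family of small GTPases of the Ras superfamily. Probe sets were taken as Rab genes where GEO's platform annotation gave them 1 gene symbol made of Rab, a number and at most 1 letter, so that regulators such as Rabgap1 or Rab3ip stayed out. This gave 95 probe sets for 50 Rab genes, among 12393 genes on the array, and for each gene the probe set with the highest mean signal over the 11 arrays was used. Of the 50 genes, 40 were bright enough to be tested. The RNA came from B cell lymphomas of E-mu-BRD2 mice on the FVB background, in which BRD2 is expressed from a transgene under the immunoglobulin heavy chain enhancer of B cells. All tumours carried the transgene and were recorded as oligoclonal for immunoglobulin. The design classes the tumours by severity, and 6 marginal and 5 transitional lymphomas were compared, each on its own array. All 5 transitional animals and marginal 2 and 3 had failed to nest, marginal 1, 4 and 5 had a tumour of the neck, leg or haunch, and marginal 6 was paralysed. Normal B cells, which the design also mentions, are not analysed here, so no comparison has a normal control, and the labels do not say from which tissue each RNA came.

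Each Rab protein marks a particular membrane. It is loaded with GTP by an exchange factor (GEF) on that membrane, then recruits effectors that bud, move, tether or fuse vesicles, and is switched off by a GTPase-activating protein (GAP). A geranylgeranyl anchor holds it in the membrane and GDI proteins carry the inactive form back through the cytosol. In B cells, Rab-controlled traffic carries immunoglobulin to the surface, takes up antigen and recycles receptors, while granule-bearing cells such as neutrophils use specialised Rabs to secrete.

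Values are MAS5 signals, a linear measure of probe brightness that was scaled to the same trimmed mean, 500.2, on all 11 arrays, and the median signal ran from 99.7 to 152. The labelled cell type was checked on 13 B cell marker genes of 14 listed, among them Cd79a, Cd79b, Ms4a1 and Pax5. Their summed signal was 35162 to 120271 on the marginal arrays and 8992 to 85220 on the transitional arrays. No marker was listed at 0, but this does not show that each was detected. Pax5 was dim, at 4.2 and 12.2 on transitional 4 and 5 and 58.7 to 127.5 on the other arrays. Transitional 4 and 5 stood apart. Their B cell scores, the mean log2 deviation of the markers from the 11-array mean, were −1.98 and −2.19, against −0.21 to 1.46 on the other 9 arrays. Their scores for 10 erythroid markers were the highest of all arrays, at 2.20 and 1.92, and their scores for 13 granulocyte markers were 2.60 and 1.39, with marginal 1 at 3.31 and marginal 3 at 2.34. Class differences, grade slopes and called marker slopes of named genes are given without transitional 4 and 5 where that changed them by over 1.5 times. Counts within role groups and within single regulator lists are given on all 11 arrays only. In such bulk RNA, fewer cells of a type and less RNA per cell cannot be told apart.

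**Figure D1:**
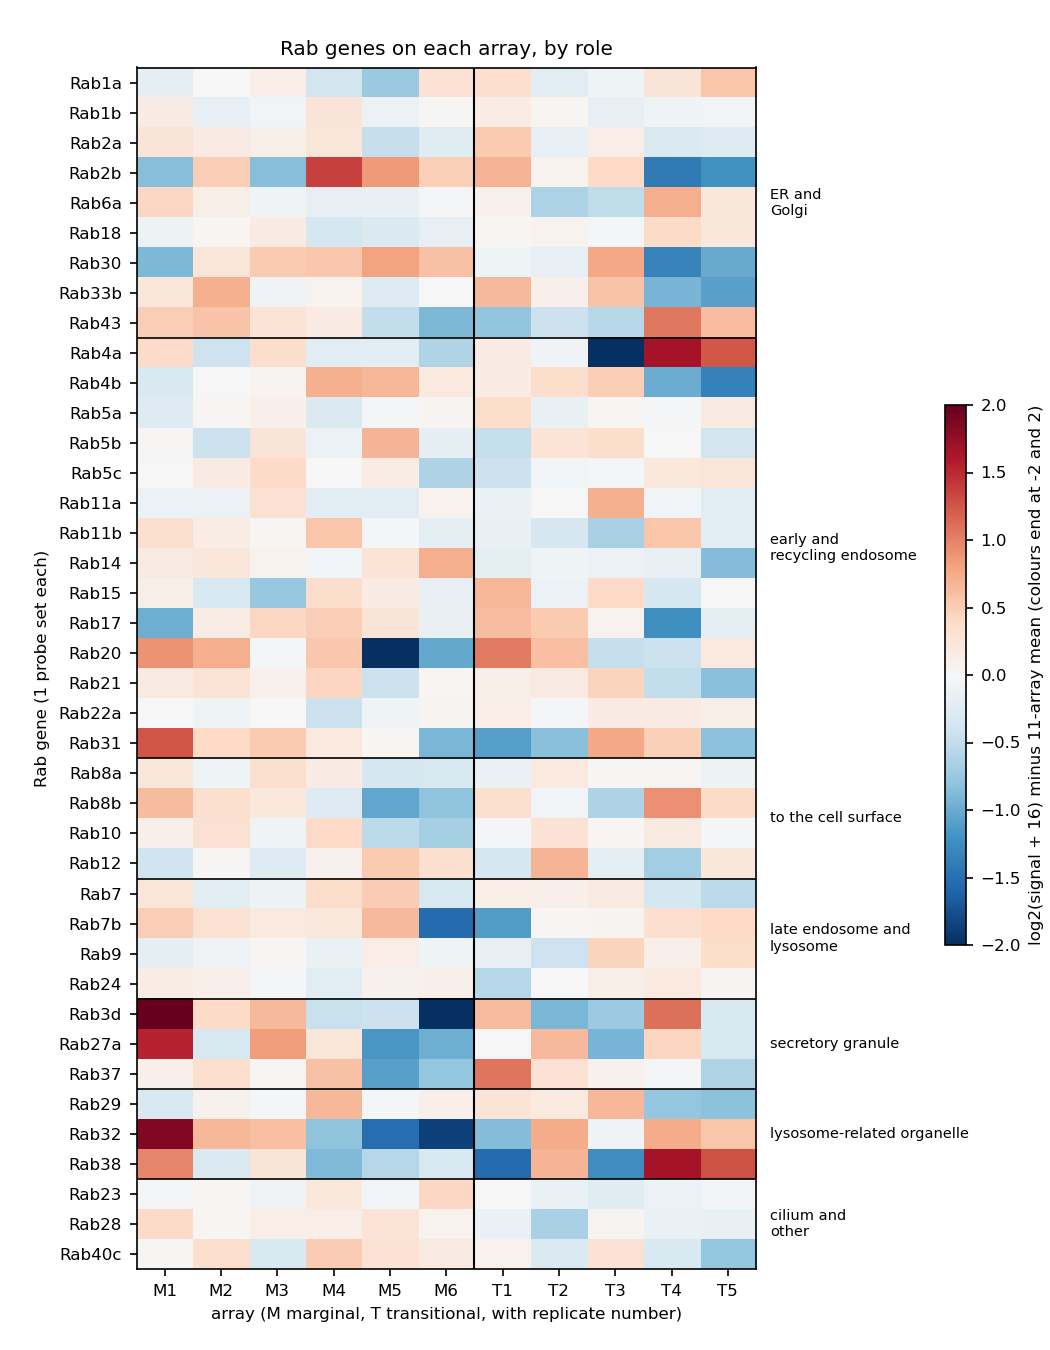
Each row is a tested Rab gene, grouped by the membrane on which its protein is known to act, and each column an array (M marginal, T transitional). Colours give log2(signal + 16) minus the gene's 11-array mean, ending at −2 and 2. Rows such as Rab1b and Rab8a are nearly even, while Rab32, Rab38 and Rab3d differ strongly between arrays of 1 class.

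The Rab genes differed in how evenly they were expressed over the tumours. On the log2(signal + 16) scale the range over the 11 arrays had a median of 1.37 among the 40 tested genes. It was smallest, 0.43, for Rab1b, which acts between the endoplasmic reticulum and the Golgi, where signals lay between 677 and 918 on all arrays. Rab22a, Rab8a, Rab5a and Rab23 followed with ranges of 0.59 to 0.67. The widest ranges belonged to Rab3d (4.28), Rab4a (3.94), Rab32 (3.72), Rab38 (3.20) and Rab20 (3.07). Those of Rab4a and Rab20 each depended on 1 very dim array, at 6.5 on transitional 3 and 7.3 on marginal 5. A second tested Rab4a probe set read 26.6 on transitional 3. Related genes could differ in their range. Rab8a and Rab8b both serve traffic to the cell surface, yet Rab8a had a range of 0.65 and Rab8b of 1.96, and Rab1a had a range of 1.28 beside the 0.43 of Rab1b.

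Rab3d, a Rab of secretory granules, had signals from 18.7 to 656 in marginal lymphomas, with a median of 137, and of 216, 63.9, 75.1, 306 and 106 in transitional 1 to 5. Its highest signal was on marginal 1 and its lowest on marginal 6, both of the same class. Rab32, which serves lysosome-related organelles, ran from 55.5 to 929 in marginal lymphomas with a median of 257, and was 128, 421, 233, 425 and 370 in transitional 1 to 5. Rab38, its close relative in melanosome and platelet granule formation, ran from 81.4 to 341 in marginal lymphomas with a median of 130, and was 46.0, 274, 59.9, 554 and 420 in transitional 1 to 5. For all 3 genes the marginal and transitional ranges overlapped. Rab20, an endosome and phagosome Rab, was between 30.9 and 180 on 10 arrays and 7.3 on marginal 5. Rab4a, a Rab of fast endosomal recycling, was brightest on transitional 4 and 5 (328 and 243), dimmest on transitional 3 (6.5), and between 55.5 and 125 on all others. Its probe set is of the type that can match transcripts of more than 1 gene.

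The first comparison asked whether Rab expression differs with disease class. No Rab gene passed the test. In limma's test over 13576 probe sets with Benjamini-Hochberg adjustment, 0 of the 40 tested Rab genes passed (background 0% of all probe sets; smallest adjusted p = 0.999), and 2, both lower in transitional lymphomas, had an unadjusted p under 0.05. The background for such a p was 3.34%, made of 2.39% lower and 0.95% higher. The count of Rab genes with such a p was 1 without transitional 4 and 5 and 0 under median scaling. It was 0 to 5 on leaving out 1 array. The mean was lower in transitional lymphomas for 25 of 40 Rab genes, against 57.6% of all probe sets, but for 13 of 40 against 42.1% when arrays were scaled to a common median, and for 17 of 40 against 47.8% without transitional 4 and 5. The median log2 difference, transitional minus marginal, was −0.05 for the Rab genes and −0.06 for all probe sets, and median scaling moved these to 0.07 and 0.06, and leaving out transitional 4 and 5 to 0.03 and 0.02. The family's median moved with the array scale as that of all probe sets did, and the differences below are on the deposited scale.

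**Figure D2:**
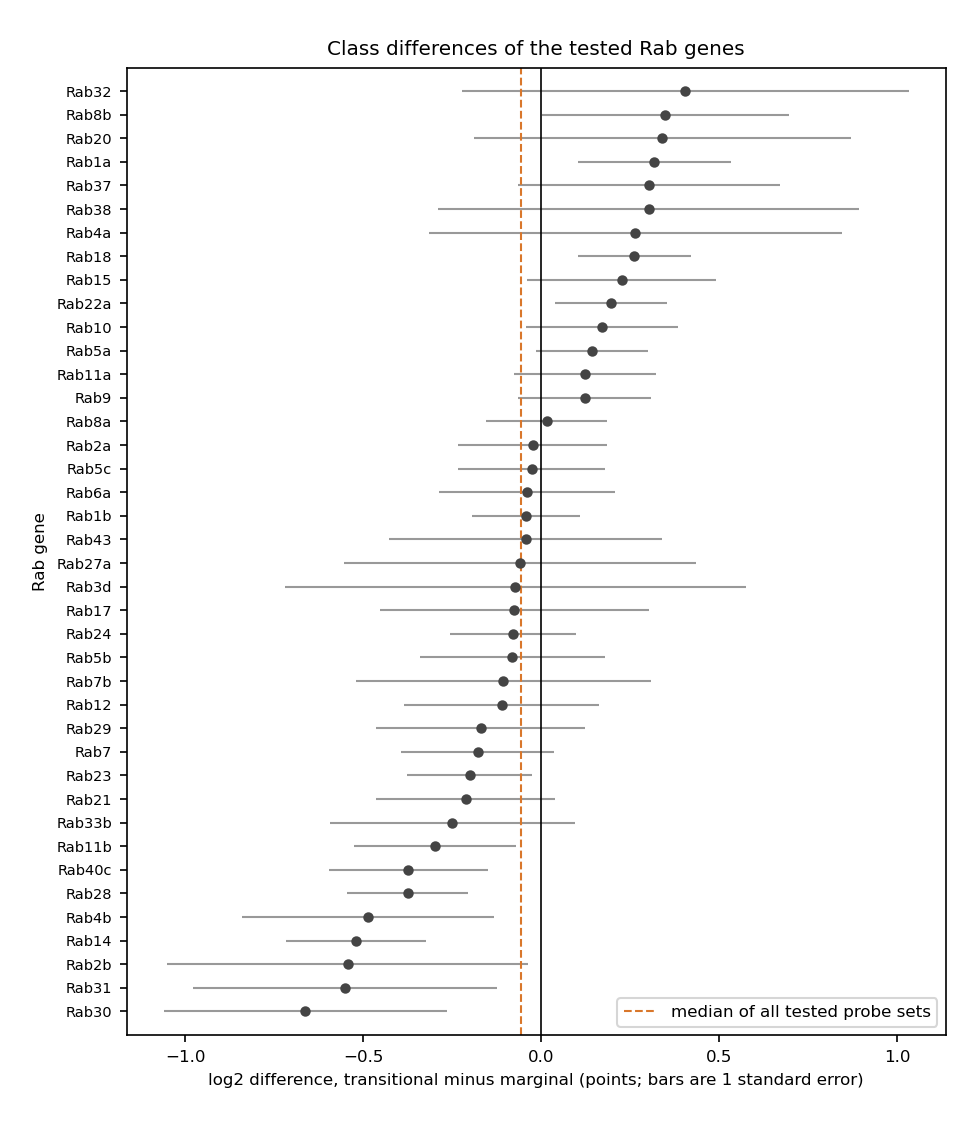
Points are log2 differences, transitional minus marginal, of the 40 tested Rab genes, and bars are 1 standard error (6 marginal and 5 transitional arrays). The dashed line is the median of all tested probe sets, −0.06, which median scaling turned to 0.06. The differences run from −0.66, that of Rab30, to 0.40, and none passed the limma test.

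Among Rabs of early and recycling endosomes, 14 of 15 genes were tested, 6 with a higher and 8 with a lower mean in transitional lymphomas. Rab14, which moves cargo between the Golgi and endosomes, had the smallest p of the family. Its signal was 2293, 2474, 2418, 2344 and 1424 in transitional 1 to 5, and 2511 to 4348 with a median of 3021 in the marginal lymphomas. On the deposited scale each transitional array lay below every marginal array, which held for 0.125% of all probe sets in this direction and for no other tested Rab gene in either. The closest arrays were transitional 2 at 2474 and marginal 4 at 2511. Median signals differed between arrays, such as 109 on transitional 4 and 138 on marginal 4. Relative to these medians Rab14, at 2344 and 2511, was higher on transitional 4 than on marginal 4. The separation therefore does not hold under median scaling. The log2 difference was −0.52 (SE 0.20, adjusted p = 0.999 in limma; unadjusted p under 0.05). The 4 other tested Rab14 probe sets differed in the same direction, by −0.30 to −0.66, with overlapping classes. The chosen Rab14 probe set, too, can match more than 1 gene.

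Rab4b, the second Rab4 form, ran from 1094 to 2241 with a median of 1491 in marginal lymphomas and was 1520, 1751, 1927, 677 and 526 in transitional 1 to 5. Only transitional 4 and 5 were below the marginal range. The log2 difference of −0.49 (SE 0.35) became 0.12 without these arrays. Rab11b, a marker of recycling endosomes, differed by −0.30 (SE 0.23), and by −0.52 without transitional 4 and 5. Rab5a, which drives fusion of early endosomes, differed by 0.14 (SE 0.16) and Rab15, another endosomal Rab, by 0.23 (SE 0.27), the latter by 0.42 without transitional 4 and 5. Rab22a differed by 0.20 (SE 0.16), but its 2 other tested probe sets differed by −0.68 and −0.36, and the mean of all 3 was −0.28, so its direction depends on the probe set.

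Of 11 Rabs of the endoplasmic reticulum and Golgi, 9 were tested, 2 with a higher and 7 with a lower mean in transitional lymphomas. Rab30, a Golgi Rab, had the lowest difference of the family, −0.66 (SE 0.40). Its signal was 377 to 1266 with a median of 1047 in marginal lymphomas and 679, 642, 1242, 276 and 348 in transitional 1 to 5. Marginal 1 was nearly as low as transitional 4 and 5, so the classes overlapped, and without transitional 4 and 5 the difference was −0.12. The genes with a higher mean were Rab18, which acts on the endoplasmic reticulum and lipid droplets, and Rab1a, which directs vesicles from the endoplasmic reticulum to the Golgi. Rab18 had signals of 1278 to 1835 with a median of 1504 in marginal lymphomas and of 1688, 1734, 1623, 2152 and 1936 in transitional 1 to 5, a log2 difference of 0.26 (SE 0.16), or 0.15 without transitional 4 and 5. Rab1a had signals of 2381 to 4851 with a median of 3731 in marginal lymphomas and of 5042, 3448, 3745, 4776 and 5816 in transitional 1 to 5, a log2 difference of 0.32 (SE 0.21), or 0.16 without those arrays. Both genes overlapped between the classes.

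**Figure D3:**
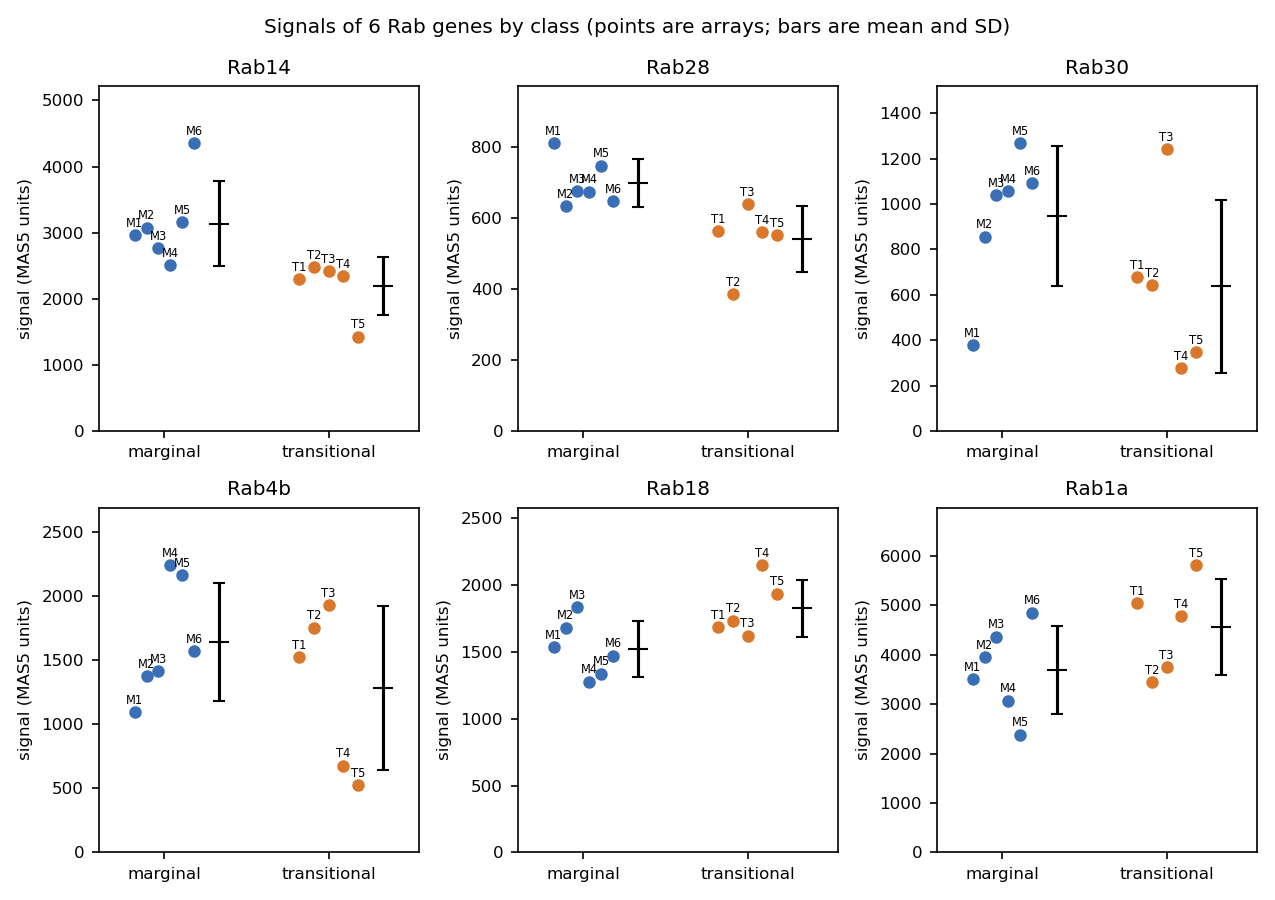
MAS5 signal of 6 Rab genes on each array, by class, on a linear axis from 0. Points are arrays labelled by class letter and replicate number, and bars are the mean and SD (6 marginal, 5 transitional). Rab14 is the gene whose classes do not overlap on this deposited scale, and Rab4b and Rab30 are low on transitional 4 and 5.

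The other role groups were small. All 3 tested members of the ciliary and remaining Rabs had a lower mean in transitional lymphomas on the deposited scale. Rab28, a Rab of cilia, had signals of 635 to 811 with a median of 676 in marginal lymphomas and of 563, 386, 639, 560 and 553 in transitional 1 to 5. Only transitional 3 reached the marginal range. The log2 difference was −0.38 (SE 0.17, adjusted p = 0.999 in limma; unadjusted p under 0.05), while a second tested Rab28 probe set differed by 0.05 (SE 0.23). Rab40c, an unusual Rab with a SOCS box that joins it to a ubiquitin ligase, differed by −0.37 (SE 0.22), and by −0.15 without transitional 4 and 5. Of 4 tested Rabs of traffic to the surface, 3 had a higher mean. Rab8b differed by 0.35 (SE 0.35), by 0.04 without transitional 4 and 5 and by −0.08 among animals that failed to nest. Of 4 tested Rabs of late endosomes and lysosomes, 3 had a lower mean, with differences from −0.18 to 0.12. The late endosomal regulator Rab7 lay at the low end, with signals of 1518 to 2710 in marginal and of 1293 to 2137 in transitional lymphomas. The 3 tested Rabs of secretory granules differed by −0.07 to 0.30 and the 3 of lysosome-related organelles by −0.17 to 0.40. Of the 19 Rab genes with several tested probe sets, 13 had the same direction in all of them and 6 did not.

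The second comparison asked whether Rab signals follow the recorded spleen enlargement, ranked from 1 (marginal) to 5 (severe). Only transitional animals had moderately severe or severe spleens, and only marginal lymphomas had marginal or moderate ones. Grade and class are thus partly tied together. Transitional 4 and 5 were all of the moderately severe spleens, so leaving them out removes that grade. In the limma trend test 0 of 40 Rab genes passed (background 0%; smallest adjusted p = 1), and 2, Rab31 and Rab28, had an unadjusted p under 0.05, both with a negative slope, against a background of 2.15% in all and 1.18% in that direction. Rab31, an endosome and trans-Golgi Rab, was 1037 in the animal with a marginal spleen and 564, 612, 484 and 730.5 in those with mild enlargement. It was 432 and 216.5 with moderate, 592 and 233 with moderately severe, and 188 and 231 with severe enlargement. The 3 lowest signals thus included both severe spleens and marginal 6, while transitional 4 was as high as the mild group. The slope was −0.48 per grade (SE 0.11, adjusted p = 1 in limma, and 0.291 to 1 over the alternatives), and −0.66 with class in the model. The second Rab31 probe set gave −0.25 per grade. Slopes were −0.17 per grade for Rab28 (SE 0.06) and −0.13 for Rab40c (SE 0.09). The second tested Rab28 probe set gave −0.07 per grade. The smallest p-values among positive slopes were those of Rab4a (0.27, SE 0.21), Rab5a (0.07, SE 0.06) and Rab1a (0.10, SE 0.09), each of which missed the threshold. Without transitional 4 and 5 the slopes were 0.09 for Rab4a, 0.05 for Rab1a and −0.07 for Rab40c.

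**Figure D4:**
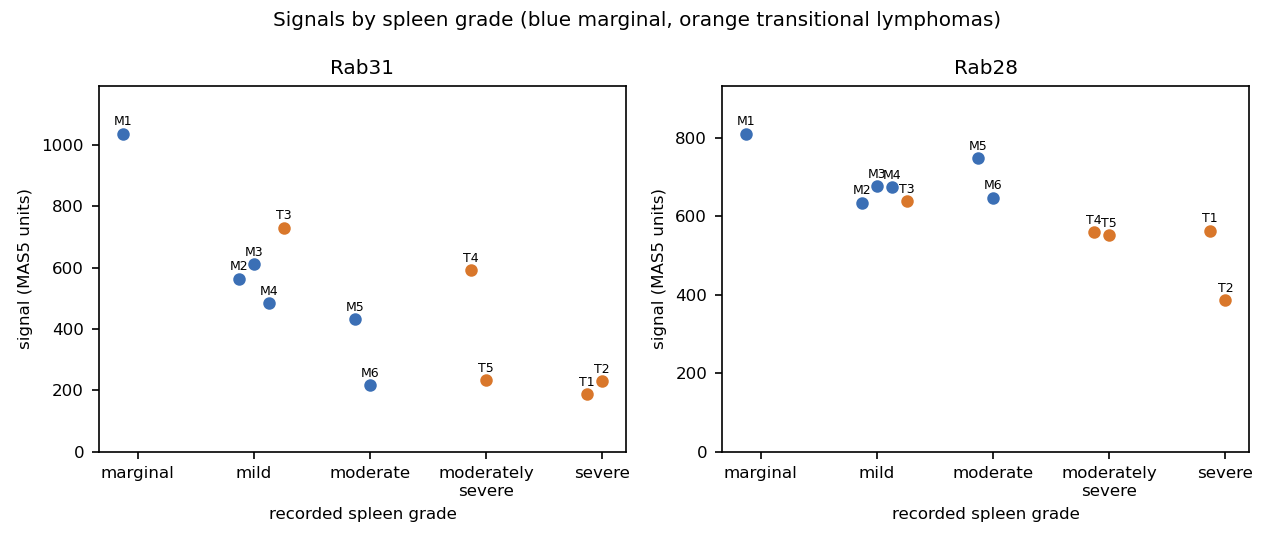
MAS5 signal of Rab31 and Rab28 on each array against the recorded spleen grade, on a linear axis from 0, with marginal lymphomas in blue and transitional in orange. Rab31 runs from 1037 at the lowest grade to 188 and 231 at the highest, with transitional 4 at 592.

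The third comparison set each Rab gene against what the tissue held, read from marker lists of 7 cell types. For each list limma fitted the slope of every probe set on the list's score, adjusted over all probe sets within that list. It called 24 of 280 pairs of a Rab gene and a list, involving 13 Rab genes, and the count fell to 2 without transitional 4 and 5. For B cell markers 9 of 40 Rab genes were called against a background of 27.8% of all probe sets, for T cell markers 5 against 20.7%, for erythroid markers 4 against 16.8% and for granulocyte markers 6 against 17.2%. These shares lie near or below the background. For cytotoxic and NK cell markers 0 were called against 12.1% (smallest adjusted p = 0.0522 in limma). There 10 had an unadjusted p under 0.05, or 2 without transitional 4 and 5. For macrophage markers 0 were called against 0.0663% (0 unadjusted), and for megakaryocyte and platelet markers 0 against 0.00737% (4 unadjusted). Without transitional 4 and 5 the backgrounds were 0.331% for T cell, 0.376% for cytotoxic and NK cell and 2.88% for erythroid markers, and no Rab gene was called on these lists.

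A positive slope on the B cell score was called for Rab4b, Rab2b, Rab29, Rab30, Rab40c, Rab33b and Rab21, and a negative slope for Rab38 and Rab4a (Rab33b and Rab21 are named to complete the count, after their values were seen). The 5 calls on the T cell score, positive for Rab4b, Rab29, Rab33b and Rab21 and negative for Rab38, were all among these genes. The T cell score, too, was lowest on transitional 4 and 5, at −1.44 and −3.53. The T cell slopes of Rab4b, Rab33b and Rab21, at 0.33, 0.30 and 0.21, were 0.09, 0.16 and 0.09 without these arrays. Which score the 5 genes follow was not tested. On the B cell score Rab4b had a slope of 0.53 log2 units per unit of score (SE 0.08, adjusted p = 0.00124 in limma) and Rab2b, a Golgi Rab, of 0.72 (SE 0.12, adjusted p = 0.00196). Rab2b signal was 92.0 to 490 with a median of 258 in marginal lymphomas and 298, 189, 242, 57.4 and 68.4 in transitional 1 to 5. It was low on marginal 1 and 3 as well as on transitional 4 and 5, the 4 arrays with the highest granulocyte scores, and its slope on the granulocyte score was also called, at −0.36 (SE 0.08, adjusted p = 0.00858). All 5 tested Rab2b probe sets were called on the B cell score. Rab4a and Rab4b, which encode closely related proteins, ran opposite to each other on transitional 4 and 5, where Rab4a was highest and Rab4b lowest.

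Without transitional 4 and 5 none of the 9 calls on the B cell score held (background then 0%; smallest adjusted p = 0.648; 3 Rab genes at an unadjusted p under 0.05). Several slopes were about as large or larger without them, at 1.146 for Rab2b, −1.03 for Rab38, 0.44 for Rab40c, 0.56 for Rab30 and 0.34 for Rab29. Others were smaller, such as 0.36 for Rab4b, 0.10 for Rab21 and 0.10 for Rab33b, and that of Rab4a went from −0.64 to −0.38. Because these arrays form a cluster of their own, correlations with the B cell score are given over the other 9 arrays. The 8 pairs correlated here were picked for the smallest p of the slopes, so their permutation p-values are not independent of that choice. Rab2b had Pearson r = 0.838 (permutation p = 0.00592, adjusted p = 0.0118 over the 8 pairs) and Spearman rho = 0.867 (permutation p = 0.00445, adjusted p = 0.0093), and r = 0.651 after marginal 1 and 4 were left out. Rab40c had r = 0.857 (permutation p = 0.00356, adjusted p = 0.0117) and rho = 0.900 (permutation p = 0.00207, adjusted p = 0.00828), and r = 0.908 after the same arrays were left out. Its slope over all arrays, 0.29 (SE 0.07, adjusted p = 0.0101), was no longer called without transitional 5 alone (adjusted p = 0.118) or after quantile normalization (0.0542) or median scaling (0.0918). For Rab4b (r = 0.586, permutation p = 0.098; rho = 0.533, permutation p = 0.146), Rab29 (r = 0.585, permutation p = 0.0973; rho = 0.40, permutation p = 0.291), Rab30 (r = 0.546, permutation p = 0.130; rho = 0.583, permutation p = 0.107) and Rab38 (r = −0.654, permutation p = 0.056; rho = −0.650, permutation p = 0.0669) the relation over 9 arrays did not pass. After marginal 1 and 4 were left out, r was 0.321 for Rab30, −0.555 for Rab38, 0.020 for Rab4b and 0.010 for Rab29. Among the 6 marginal arrays alone r was 0.742 for Rab4b and 0.861 for Rab29. The relation of Rab4b and Rab29 over the 9 arrays thus rested on marginal 1 and 4. The slope of Rab29, a Golgi and lysosome Rab, was also lost without transitional 5 alone (adjusted p = 0.0596) and that of Rab30 without transitional 4 alone (0.0511).

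**Figure D5:**
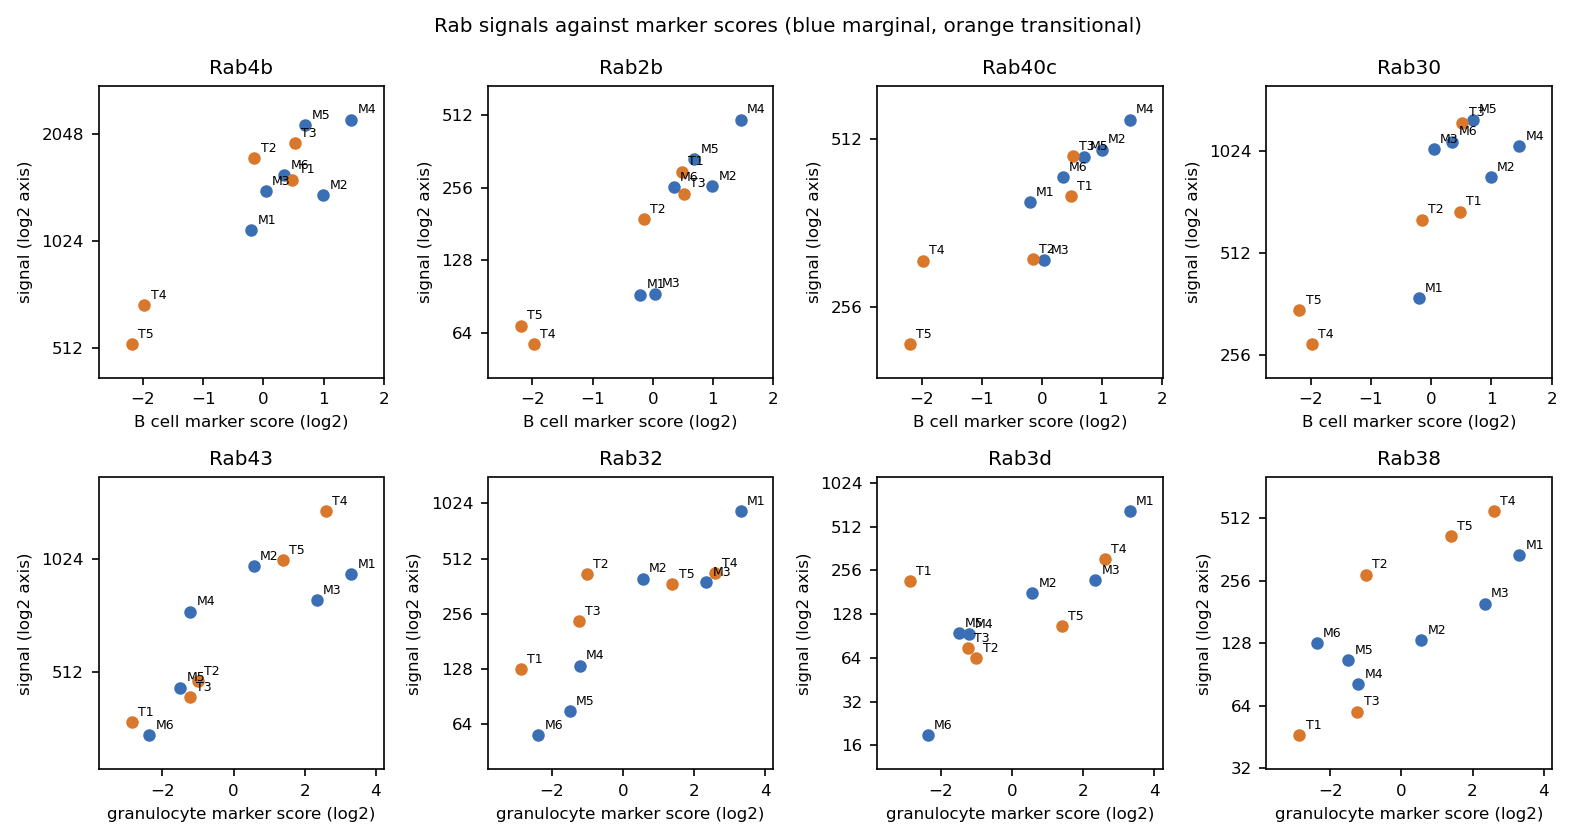
Signal of 8 Rab genes (log2 axis) against the B cell marker score (upper row) or the granulocyte marker score (lower row) of each array, with marginal lymphomas in blue and transitional in orange. In the upper row transitional 4 and 5 stand apart near a score of −2, and in the lower row 6 arrays lie at −1.004 or below and 5 at 0.56 or above.

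The granulocyte score ran from −2.87 on transitional 1 to 3.31 on marginal 1, with its widest gap, 1.565, between 6 arrays below and 5 above it. Positive slopes were called for Rab43, Rab32, Rab38, Rab3d and Rab8b. Rab43, a Golgi Rab, was 346 to 983 with a median of 770 in marginal lymphomas and 375, 484, 438, 1378 and 1019 in transitional 1 to 5. It was high on all 5 arrays with a score above 0 (798 to 1378) and lower on all 6 others (346 to 742). Its slope was 0.27 (SE 0.05, adjusted p = 0.0063 in limma) and 0.23 without transitional 4 and 5 (adjusted p = 0.0444). Over the 11 arrays Rab43 had r = 0.872 (permutation p = 0.00099, adjusted p = 0.00159) and rho = 0.873 (permutation p = 0.00109, adjusted p = 0.00218), with r = 0.849 after marginal 1 and transitional 4 were left out and r = 0.787 among the 6 marginal arrays. Both tested Rab43 probe sets were called. Rab32 had a slope of 0.44 (SE 0.09, adjusted p = 0.00705), and of 0.48 without transitional 4 and 5 (adjusted p = 0.0257). Its correlations were r = 0.833 (permutation p = 0.00172, adjusted p = 0.00172) and rho = 0.882 (permutation p = 0.00071, adjusted p = 0.00189), with r = 0.744 after marginal 1 and transitional 4 were left out and r = 0.959 among the marginal arrays. Rab43 and Rab32 made up the 2 calls left without transitional 4 and 5, against a background of 5.36% for that list. Among the 6 arrays below the gap in the score, an analysis added after the data were seen, r was 0.676 for Rab43 (exact permutation p = 0.0806, two-sided) and 0.577 for Rab32 (exact permutation p = 0.211). The relation within those 6 arrays therefore did not pass for either gene. No correlation was run over the 5 arrays above the gap. There Rab43 was 983 at the lowest score (marginal 2) and 936 at the highest (marginal 1). Rab32 was 929 on marginal 1 and 370 to 425 on the others above the gap. How much of the r over 11 arrays is a step between the 2 sets of arrays was not tested.

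Rab38 had a granulocyte slope of 0.39 (SE 0.09, adjusted p = 0.015), Rab3d of 0.39 (SE 0.11, adjusted p = 0.0328) and Rab8b of 0.21 (SE 0.06, adjusted p = 0.0442). Without transitional 4 and 5 these slopes were 0.30, 0.42 and 0.17, with adjusted p = 0.0964, 0.0814 and 0.208 in limma. Rab43 and Rab38 also had called slopes on the erythroid score, 0.32 (SE 0.07, adjusted p = 0.00896) and 0.47 (SE 0.11, adjusted p = 0.0142), neither of which held without transitional 4 and 5 (adjusted p = 0.154 and 0.262). The other 2 erythroid calls were negative, Rab2b at −0.375 (SE 0.11, adjusted p = 0.0388) and Rab29 at −0.21 (SE 0.06, adjusted p = 0.0416). Without transitional 4 and 5 these slopes were −0.24 and −0.12 (adjusted p = 0.449 and 0.489 in limma). The erythroid and granulocyte scores were both above 0 on marginal 1, 2 and 3 and transitional 4 and 5. On the 6 other arrays both were below 0. Rab32, Rab3d and Rab8b were called on the granulocyte score but not on the erythroid score. No fit held both scores, so which of them a Rab gene follows was not tested. The summed granulocyte marker signal ran from 11787 to 249961 on marginal and from 9424 to 193930 on transitional arrays, and the part of the marker cells in the Rab signals was not tested.

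The promoters of the genes with the strongest marker slopes are shown because these genes had called slopes on the B cell score (Rab4b, Rab2b, Rab29 and Rab40c) or on the granulocyte score (Rab32). Rab4b and Rab29 were also called on the T cell score, and Rab2b and Rab29 on the erythroid score. Rab2b was called on the granulocyte score too. Of the 8 genes named for such slopes, the 5 shown have 1 entry each in the RefSeq promoter table of GRCm38.p6, Rab43 has 4, and Rab30 and Rab38 are not shown. Each runs from 250 bases before the annotated start to 50 after it, 5′ to 3′ along the gene, and capitals mark matches on either strand to any of 3 motifs. These are the GC box, spelled GGGCGG and bound by Sp1 proteins, the box bound by the factor NF-Y, spelled CCAAT, and the core bound by the haematopoietic factor PU.1, spelled GAGGAAG.
Rab4b: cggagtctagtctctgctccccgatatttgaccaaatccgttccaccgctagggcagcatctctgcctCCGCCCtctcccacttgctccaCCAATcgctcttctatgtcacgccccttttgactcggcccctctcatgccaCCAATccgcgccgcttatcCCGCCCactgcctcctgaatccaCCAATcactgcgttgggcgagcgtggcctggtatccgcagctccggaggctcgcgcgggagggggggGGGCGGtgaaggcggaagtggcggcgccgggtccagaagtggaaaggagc
Rab2b: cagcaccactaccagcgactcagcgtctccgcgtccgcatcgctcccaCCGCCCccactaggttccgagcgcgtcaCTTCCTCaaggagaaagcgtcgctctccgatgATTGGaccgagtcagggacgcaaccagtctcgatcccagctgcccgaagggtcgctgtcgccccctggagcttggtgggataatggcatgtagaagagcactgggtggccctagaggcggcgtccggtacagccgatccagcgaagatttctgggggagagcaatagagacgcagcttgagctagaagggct
Rab40c: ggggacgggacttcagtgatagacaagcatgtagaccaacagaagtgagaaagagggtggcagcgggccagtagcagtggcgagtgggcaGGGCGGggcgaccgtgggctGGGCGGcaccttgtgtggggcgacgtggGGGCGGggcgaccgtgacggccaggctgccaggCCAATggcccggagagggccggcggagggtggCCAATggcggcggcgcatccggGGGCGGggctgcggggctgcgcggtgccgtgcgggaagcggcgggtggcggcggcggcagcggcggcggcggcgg
Rab29: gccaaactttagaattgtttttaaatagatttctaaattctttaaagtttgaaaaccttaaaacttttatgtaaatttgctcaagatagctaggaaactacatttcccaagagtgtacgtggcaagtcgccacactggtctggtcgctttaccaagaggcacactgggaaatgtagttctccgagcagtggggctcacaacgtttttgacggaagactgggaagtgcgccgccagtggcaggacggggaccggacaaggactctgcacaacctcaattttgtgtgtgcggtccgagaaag
Rab32: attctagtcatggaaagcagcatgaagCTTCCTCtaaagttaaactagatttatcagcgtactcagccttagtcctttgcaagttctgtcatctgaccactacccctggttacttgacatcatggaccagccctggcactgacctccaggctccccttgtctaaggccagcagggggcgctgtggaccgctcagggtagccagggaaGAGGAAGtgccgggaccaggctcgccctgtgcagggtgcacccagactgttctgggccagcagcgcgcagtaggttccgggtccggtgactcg
They lie at chr7:27178834-27179133 (minus strand, Rab4b), chr14:52279346-52279645 (minus, Rab2b), chr17:25919665-25919964 (minus, Rab40c), chr1:131867027-131867326 (plus, Rab29) and chr10:10558158-10558457 (minus, Rab32).

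The Rab4b, Rab2b and Rab40c windows each held GC and CCAAT boxes. Rab4b had 3 CCAAT boxes, starting 160, 109 and 67 bases before the start, and Rab40c had 4 GC boxes. A GC box is in 35.7% of all promoters in the table and in 68.5% of the Rab promoters, and a CCAAT box in 37.4% and 42.6%. The Rab32 window held neither box but had the PU.1 core starting 223 and 43 bases before the start, a motif found in 13.6% of all promoters, and once in Rab2b, starting 174 bases before the start. None of these motifs was in the Rab29 window. A further 7 motifs were searched on both strands and are in none of the 5 windows. The E-box of MYC-like factors, CACGTG, occurs in 7.2% of all promoters, and the core of the ETS family of factors, CCGGAAG, in 8.9%. The core of the GATA factors, AGATAA, occurs in 11.2% of all promoters, and the palindrome of the B cell factor EBF1 in 0.9%. The octamer of Oct factors, ATTTGCAT, occurs in 1.7% of all promoters, the cyclic AMP element bound by CREB, TGACGTCA, in 1.8% and the box of the TATA-binding protein, TATAAA, in 13.6%. Rab promoters had a median GC content of 61.2% and 20 CpG pairs, against 52.7% and 7 for all promoters. Such matches describe the letters only.

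The proteins that control Rabs were compared in lists of 142 genes, of which 70 were tested. None passed between classes in limma (smallest adjusted p = 0.999). The mean was lower in transitional lymphomas for 55 of 70, against 57.6% of all probe sets, with a median log2 difference of −0.23 against −0.06. Under median scaling 43 of 70 were lower against 42.1%, with a median of −0.11 against 0.06. Without transitional 4 and 5, 33 of 70 were lower against 47.8%, with a median of 0.03 against 0.02. Of 6 tested genes of membrane delivery, 5 had a lower mean. The subunits of the enzyme that attaches the geranylgeranyl anchor pointed apart, Rabggtb at 0.52 (SE 0.30) and Rabggta at −0.24 (SE 0.33). Without transitional 4 and 5 they were 0.16 and 0.28. Of 20 tested exchange factors, 17 had a lower mean, and 3 of these had an unadjusted p under 0.05 (background 2.39% in this direction). They were the only genes with such a p, in either direction, among all 70 tested regulators. Dennd6a, an exchange factor for Rab14, averaged 721 ± 199 over the 6 marginal arrays and 456 ± 107 over the 5 transitional arrays (mean ± SD), a log2 difference of −0.63 (SE 0.24). Marginal 1, at 448, lay within the transitional range of 316.5 to 545.5, and the other marginal arrays lay above it. Dennd5a, of the same DENN family, differed by −0.49 (SE 0.19), and the third was Dennd4b. Of 16 tested GAPs 12 had a lower mean, with the smallest p for Tbc1d13 (−0.38, SE 0.21) and Tbc1d17 (−0.50, SE 0.28, and −0.20 without transitional 4 and 5). Of 28 tested effectors 21 had a lower mean, with the smallest p for Vps18, a tether subunit of late endosomes and lysosomes (−0.41, SE 0.20), and Pik3r4, a subunit of the endosomal phosphoinositide kinase complex (−0.64, SE 0.32, and −0.19 without transitional 4 and 5).

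The 10 Rab genes that were too dim to test were Rab3a, Rab3b, Rab3c, Rab6b, Rab13, Rab25, Rab27b, Rab33a, Rab34 and Rab40b. Their signals were at most 131 on every array, apart from 402 for Rab3b on marginal 6 and 185 for Rab25 on transitional 2. Rab3b, known from regulated secretion, was between 9.4 and 71.8 on the other 10 arrays. Rab27a, which docks lytic granules in cytotoxic cells and is the tested relative of Rab27b, ran from 23.4 to 241 in marginal and from 30.4 to 123 in transitional lymphomas with no call on any marker score.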

How the data were processed

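Intensities are array signals computed by the authors with MAS5, per the submitters' processing notes, with no version given. The 64 Affymetrix control probe sets of 22690 were left out, 16 was added before log2, and the upper 60% by mean (13576 of 22626) were tested, blind to class. Gene symbols were those of the platform annotation at GEO, brought up to date by Entrez identifier (20380 probe sets with 1 gene, 691 with several, 1555 with none). Class, spleen grade and marker scores were fitted with limma 3.58.1 in R 4.3.3 (lmFit, eBayes with a trend on intensity; two-sided tests at a Benjamini-Hochberg adjusted p of 0.05). Permutation p-values used 100000 draws. A score is the mean log2 deviation of a list's tested genes from the 11-array mean. The fits were tested on simulated data.

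The members, lists and tests were chosen with earlier results of these data known. Named Rab genes have the 6 smallest class p or 3 smallest grade p in either direction, the 5 widest ranges, classes that do not overlap, or the 8 smallest marker slope p, 1 per gene; each regulator list gives the 2 smallest p. Alternatives covered offset, normalization, filter, trend, array weights, probe set choice, a sample-number block and left-out arrays. The labels give no animal numbers and no batch, so p-values measure the spread between these samples, and the number of arrays limits their precision.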

Additional observations from a re-analysis of the deposited data

Results flagged for a closer look

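Of 42 gene and class combinations checked for an array far from the others of its class (21 named Rab genes on the log2 scale), 5 stood out, and chance alone is set to give about 1 in 20. Rab14 was 1424 on transitional 5, while the next transitional array was at 2293. Rab28 was 386 on transitional 2, below the next at 553. Rab30 was 377 on marginal 1, below the next at 856. Rab22a was 215 on marginal 4, below the next at 275, and 287 on transitional 2, below the next at 318. All 5 lay at the low end of their class.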

How the results depend on the processing

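No Rab gene, regulator or other probe set was called between classes under any of 13 alternatives or on leaving out each array in turn (smallest adjusted p among Rab genes 0.576 and 0.835), nor any for spleen grade (12 alternatives, smallest 0.291; 0.849 on leaving out an array). The median Rab difference was 0.067 under median scaling, and from −0.09 to 0.0062 on leaving out 1 array. The sample number as a replicate block gave 0 called Rab genes and a median difference of −0.09. Same-numbered arrays of the classes deviated with correlations of −0.45 to −0.09. That gave no sign of pairing by number, but it cannot exclude one, because the arrays also differ in their marker scores. Directions turned for Rab22a with the mean of its probe sets (−0.28), for Rab8b among animals that failed to nest (−0.078), for Rab4b without transitional 4 and 5 (0.12), and for Rabggta with array weights (0.10) and without transitional 4 and 5 (0.28). The marker score pairs called, 24, were 21 to 26 under the offsets and scalings, 2 without transitional 4 and 5, and 11 to 28 on leaving out 1 array (11 without transitional 4, 12 without transitional 5); fewer arrays enter those fits, and no further cause was tested. Rab15, Tbc1d13 and Vps18 gave no value under the stricter filter, which they did not pass, and neither did Rab4a.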
